A study of Danio rerio with 20 samples.

Results

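The interferon and antigen presentation genes described here are 34 of the 32266 Ensembl genes in a table of RNA sequencing read counts from zebrafish spinal cord cells. They were chosen by name, from a list of 40 symbols of interferon signalling and antigen presentation. No measured value was a criterion, but the list was chosen with earlier results of these data known. Of these symbols 38 were used, and a table row was found for 36 of them, 2 of the rows through the symbol without its paralog letter (PSMB8 and PSMB9), while irf2 and ube2l6 had no row. By role, 19 genes belong to the class I presentation machinery, 3 to the class II pathway, 6 are transcription factors of the interferon response, and 6 are interferon-induced effectors and sensors. The libraries were made from living eGFP-positive cells sorted from the cords of adult fish carrying the transgene Tg(olig2:eGFP), which every sample of both groups shares. In 10 libraries the cells came from fish whose cord had been cut 7 days before (7 dpl, called lesion here), and in the other 10 from sham-operated fish with an intact cord. The reporter is driven by regulatory sequence of olig2, a gene of the oligodendrocyte lineage, and the labels call the sorted cells oligodendrocyte progenitor cells. Pieces of about 0.5 mm from 9 cords were combined per group, so the 10 libraries of a group may be portions of 1 pool of cells. P-values here thus speak of library-to-library spread, possibly technical, and fewer cells of a kind cannot be told apart from less RNA per cell.

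Interferons are secreted proteins that signal through receptors and Janus kinases to transcription factors, among them STAT2 and IRF9, which enter the nucleus and switch on interferon-induced genes. Among the induced genes are antiviral effectors and much of the class I machinery, which shows peptides made inside the cell to killer T cells. Its parts cut proteins into peptides (the proteasome with its inducible catalytic subunits and the activator PSME1-PSME2) and carry the peptides into the endoplasmic reticulum (TAP1, TAP2). Tapasin helps to load them onto a heavy chain paired with a light chain, the product of b2m. Oligodendrocyte lineage cells of mammals are known to take up parts of this programme under interferon.

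Library totals ran from 7134670 to 10264810 counts, and 3 counts correspond to about 0.37 CPM (CPM, the level used throughout, brings each library's counts to the same total after TMM scaling). Lesion libraries held counts for more genes, 14890 ± 1022 against 11947 ± 854 in sham libraries (SD, n = 10 each), which is 24.6% more, and the groups did not overlap in this number. OLIG2, which marks the sorted lineage, had 7490 ± 1352 CPM in lesion libraries and 8302 ± 1163 CPM in sham libraries. Among 15 markers of microglia and macrophages, the main antigen-presenting cells of the cord, 4 had no count in any library, LCP1 and tyrobp among them, and 10 stayed under 1 CPM in both groups. Their summed level ranged from 8.26 to 77.0 CPM (median 34.45) in lesion libraries and from 0 to 32.5 CPM (median 10.61) in sham libraries. The 2 tested, IRF8 and cd68, had higher means in lesion libraries and did not pass the threshold. IRF8 had 17.2 ± 19.7 CPM in lesion and 1.65 ± 3.47 CPM in sham libraries (edgeR adjusted p = 0.2555). For cd68 the means were 15.5 ± 20.3 CPM in lesion and 5.42 ± 11.7 CPM in sham libraries (edgeR adjusted p = 0.824). Of the untested markers, ptprc (0.261 against 3.72 CPM) and spi1a (1.49 against 1.67 CPM) were lower in lesion libraries. CORO1A was higher (0.633 against 0.230 CPM). Counts in lesion libraries only were found for havcr1, csf1ra, csf1rb, SPI1, P2RY12 and hcls1, most of all havcr1 with 133 counts in 5 libraries. Without a filter on low counts, where 11.6% of all genes were called higher, the edgeR adjusted p was 0.0224 for havcr1 and 0.0369 for csf1ra. The lists of 11 lymphocyte, 7 neutrophil and 9 endothelial markers each had a summed median under 3 CPM in either group. The lymphocyte sum reached 12.5 CPM in lesion and 5.98 CPM in sham libraries, and the endothelial sum 19.9 CPM in lesion and 3.90 CPM in sham libraries. The neutrophil sum reached 229 CPM in lesion and 4.25 CPM in sham libraries, through MMP9, which averaged 40.1 ± 80.9 CPM in lesion and 0.0798 ± 0.252 CPM in sham libraries and was highest in lesion replicate 7, the library with the highest b2m, PSME1, PSME2, cd74a and cd74b. It was not among the genes tested, and without a filter on low counts its edgeR adjusted p was 0.00309. In that fit the lymphocyte marker tnfrsf9a was higher (edgeR adjusted p = 0.0277). So were the endothelial markers FLI1 (0.0446), ESAM (0.0435) and kdrl (0.0419), the last with counts in 1 lesion library only. The neutrophil marker npsn, with counts in 1 sham library only, was lower (0.0459). Of 10 fibroblast and pericyte markers 1 of 3 tested was higher, NOTCH3 at 14.8 ± 12.4 CPM in lesion and 0.687 ± 1.28 CPM in sham libraries (log2 fold change 4.39 ± 1.31, edgeR adjusted p = 0.0398). This list summed to 6.58 to 167 CPM (median 62.2) in lesion and 0.23 to 118 CPM (median 14.7) in sham libraries. Of 12 ependymo-radial glia markers, 3 were higher after lesion (GFAP, FOXJ1, S100B) and 3 lower (SLC1A3 ENSDARG00000104431 and both GLUL genes). GFAP had 209 ± 242 CPM in lesion and 16.3 ± 13.3 CPM in sham libraries. FOXJ1 had 81.2 ± 97.2 CPM in lesion and 0.446 ± 1.24 CPM in sham libraries. The untested her4.1 had 68.3 ± 81.2 CPM in lesion and 0.11 ± 0.346 CPM in sham libraries. The list summed to 4417 to 8805 CPM in lesion libraries and 6902 to 11128 CPM in sham libraries. Most abundant in sham libraries were the GLUL genes, at 3036 and 4082 CPM, against 1404 and 2275 CPM in lesion libraries. Of 11 neuron markers 1 was higher, tubb5 at 655 ± 283 CPM in lesion and 79.1 ± 69.9 CPM in sham libraries, and the neuron list summed to 748 to 1824 CPM in lesion and 357 to 1061 CPM in sham libraries. The part of these other cells in the results below was not tested.

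Of the 34 genes, 24 had enough counts to be tested, and 4 of these rose after lesion: the class I light chain gene b2m, both subunits of the proteasome activator, PSME1 and PSME2, and the transcription factor gene irf9. No gene of the 24 fell under edgeR, DESeq2 or limma-voom. Unadjusted p-values under 0.05 in the lower direction numbered 1 with edgeR, 4 with DESeq2 and 1 with limma-voom. Over all 10467 genes tested, 454 were higher, which is 4.34%, and 339 lower, which is 3.24% (edgeR quasi-likelihood test, Benjamini-Hochberg adjusted p under 0.05). The median log2 fold change was 0.39 over the 24 tested genes and 0.03 over all genes tested, with 15 positive and 9 negative values among the 24. Of the 14 tested class I genes 3 rose, with a median of 0.13. Of the 4 tested transcription factors 1 rose, with a median of 0.73. None of the 5 tested effectors and sensors passed the threshold in edgeR, DESeq2 or limma-voom, and their median was -0.38. In each of these tests 1 of the 5 had an unadjusted p under 0.05, in the lower direction, and in edgeR it was RSAD2. When the count of detected genes, which the group nearly fixes, was added as a covariate, none of the 24 passed the threshold in edgeR, and 1 had an unadjusted p under 0.05 in the higher and 2 in the lower direction.

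**Figure D1:**
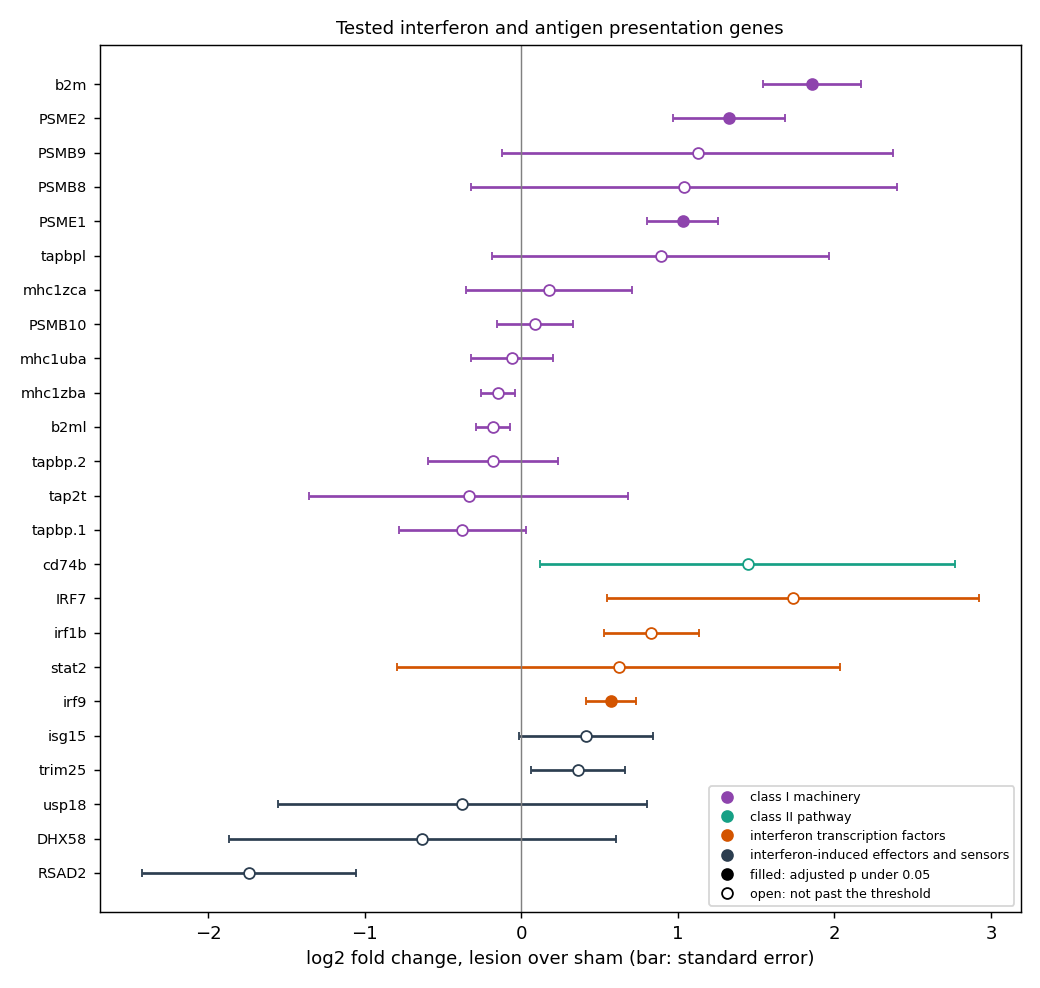
Log2 fold changes, lesion over sham, of the 24 tested genes (x axis; bars are standard errors from edgeR), ordered by role and value down the page, with filled points for adjusted p under 0.05. Filled points are at 1.86 for b2m, 1.33 for PSME2, 1.03 for PSME1 and 0.57 for irf9, while the lowest point is RSAD2 at -1.74.

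The light chain gene b2m (ENSDARG00000053136, GRCz10 chromosome 4, 12794547 to 12796640, minus strand) encodes a subunit that pairs with class I heavy chains. Class I heavy chains generally need such a light chain to fold and reach the cell surface. Its level in lesion libraries ran from 289.5 CPM through a median of 508 to 811.5 CPM, against 18.3, 150 and 256 CPM in sham libraries. The lowest lesion library therefore lay above the highest sham library. No other gene of the 24 had groups that did not overlap, and over all genes tested 1.45% had lesion libraries wholly above sham libraries. The means were 543 ± 153 CPM in lesion and 150 ± 77.7 CPM in sham libraries (SD, n = 10 each), a log2 fold change of 1.86 ± 0.31 (SE) or 3.62-fold (edgeR adjusted p = 0.000204). The log2 fold change was between 1.71 and 1.96 with any 1 library left out. Libraries whose titles carry the letter B, 4 in each group, gave 1.75 with an adjusted p of 0.0738, and the covariate for detected genes gave 0.75 (adjusted p = 0.912).

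The related light chain gene b2ml, on chromosome 8, did not pass the test. It had 670 to 1047 CPM with a median of 790 in lesion libraries, against 790 to 1154 CPM with a median of 912 in sham libraries. The ranges overlapped, and 5 lesion libraries lay below the lowest sham library (log2 fold change -0.18 ± 0.11, edgeR adjusted p = 0.511). On a scale per kilobase of exon, on which genes can be compared, b2m averaged 413 ± 116 CPM per kb in lesion and 114 ± 59.1 CPM per kb in sham libraries. For b2ml the same averages were 229 ± 40.7 CPM per kb in lesion and 259 ± 34.6 CPM per kb in sham libraries. The ratio of b2m to b2ml within a library had a median of 1.77 in lesion libraries (range 1.14 to 3.33) and 0.451 in sham libraries (range 0.045 to 0.762). Every lesion library thus held more b2m than b2ml per exon length, and every sham library held less.

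The heavy chains present the peptide, and none of the 3 among these genes passed the test. The Z-lineage gene mhc1zba, on chromosome 1, had the highest level per exon length of the 19 class I genes in both groups, 475 ± 78.0 CPM per kb in lesion and 526 ± 75.2 CPM per kb in sham libraries. Its CPM ran from 823 through 1110 to 1462 in lesion libraries and from 903 through 1295 to 1510 in sham libraries (log2 fold change -0.15 ± 0.11, edgeR adjusted p = 0.652). The U-lineage gene mhc1uba, on chromosome 19, ran from 214 through 322 to 505 CPM in lesion libraries and from 124 through 339 to 817 CPM in sham libraries. These groups overlapped widely (log2 fold change -0.06 ± 0.26, edgeR adjusted p = 0.984), and the sign turned with single settings, at 0.55 in libraries with the title letter A and -0.81 in those with B. The third heavy chain gene, mhc1zca, had medians of 1.78 CPM in lesion and 2.62 CPM in sham libraries, with 1 lesion library at 12.5 CPM (log2 fold change 0.18 ± 0.53, edgeR adjusted p = 0.97). Inside mhc1zda on the same strand lie mhc1zca and most of mhc1zba, so reads of exons they share with mhc1zda cannot be assigned with certainty.

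Light and heavy chain were also compared within libraries, as ratios per exon length, in 13 ratios chosen after the values were seen. Their permutation p-values, here and below, thus restate differences already seen, and the adjustment over the 13 does not allow for that choice. The ratio of b2m to mhc1zba had a median of 0.913 in lesion libraries (0.589 to 1.43) and 0.205 in sham libraries (0.022 to 0.346). The mean log2 ratio was higher by 2.24 ± 0.39 (SE) in lesion libraries, and all 10 lesion libraries exceeded the sham median (two-sided permutation p = 2e-05, the smallest that 100000 resamples give, adjusted p = 0.00013 over the 13 ratios). For b2m over mhc1uba the difference was 1.98 ± 0.34 (permutation p = 6e-05, adjusted p = 0.00026), and for b2m over b2ml it was 2.28 ± 0.42 (permutation p = 2e-05, adjusted p = 0.00013). All 3 differences kept their sign in the title letters A and B taken alone. With the letter B alone their exact permutation p was 0.0286, the smallest that 4 against 4 libraries allow. Since b2m and the others come from the same libraries, these ratios do not depend on the scaling of library sizes.

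**Figure D2:**
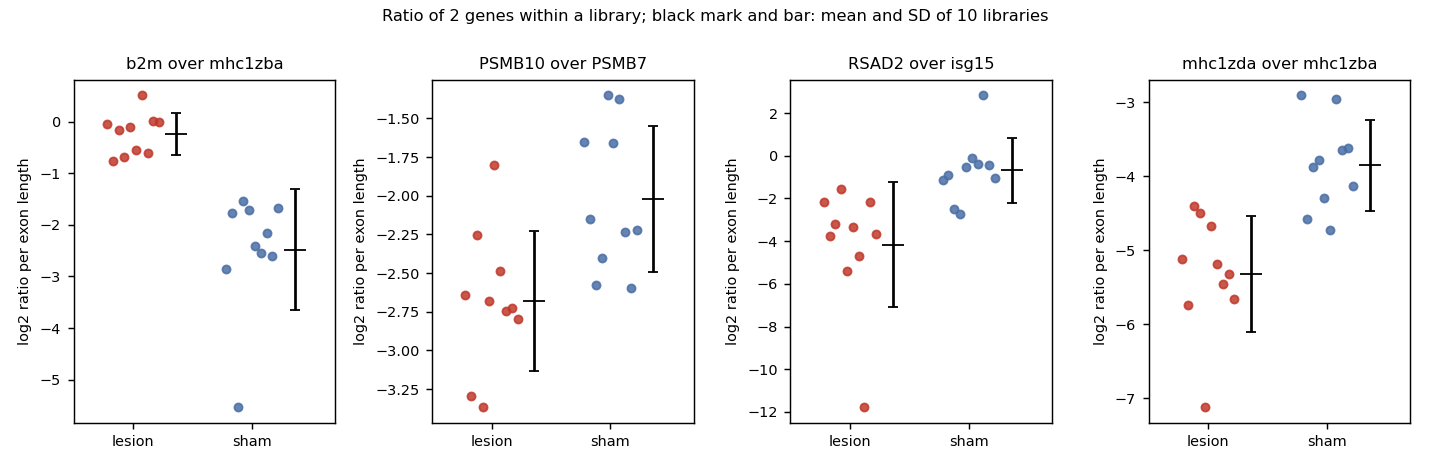
Ratio per exon length of 2 genes within each of 20 libraries, on a log2 axis (lesion in red at left, sham in blue at right; black marks and bars are mean and SD of 10 libraries). The lesion libraries lie wholly above the sham libraries for b2m over mhc1zba, and at least 9 of the 10 lie below the sham median for PSMB10 over PSMB7, RSAD2 over isg15 and mhc1zda over mhc1zba.

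The table holds 18 further genes with a class I heavy chain symbol, of which 14 had a count and 6 were tested. Among these, mhc1uca rose and mhc1zda fell. A U-lineage gene, mhc1uca lies among the antigen presentation genes of chromosome 19, and had 27.9, 106 and 163 CPM (lowest, median, highest) in lesion libraries against 11.6, 29.7 and 77.5 CPM in sham libraries. In 8 lesion libraries it exceeded the highest sham library (log2 fold change 1.597 ± 0.333, edgeR adjusted p = 0.00219). This call was lost in the title letter B alone (1.15, edgeR adjusted p = 0.684) and with the count of detected genes as a covariate (0.45, edgeR adjusted p = 1). Within libraries, mhc1uca gained on mhc1uba by a log2 ratio of 1.55 ± 0.38 (permutation p = 0.00128, adjusted p = 0.00277, 10 of 10 lesion libraries above the sham median). In the title letter B alone this difference was 1.79 (exact permutation p = 0.0571). The Z-lineage gene mhc1zda had 11.5, 38.6 and 68.1 CPM in lesion libraries, against 67.0, 132 and 186 CPM in sham libraries. All lesion libraries but 1 lay below the lowest sham library (log2 fold change -1.57 ± 0.27, edgeR adjusted p = 0.000253), and the call was lost in the letter B alone (-1.30, edgeR adjusted p = 0.17) and with the covariate (-0.93, edgeR adjusted p = 0.654). Relative to mhc1zba in the same library it was lower by 1.47 ± 0.31 on the log2 scale (permutation p = 0.00016, adjusted p = 0.00052). In the title letter B alone this difference was -1.05 (exact permutation p = 0.0857). The annotated mhc1zda covers both mhc1zca and most of mhc1zba (chromosome 1, 46433425 to 46470741, against 46464192 to 46470764 for mhc1zba). The counts of mhc1zda and mhc1zba are therefore uncertain, and with them the ratios to mhc1zba. Annotated mhc1uca lies within tapbp.1 and tapbp.2 on the other strand, and strand was ignored in the counting. Where exons overlap, the counts of mhc1uca and its ratio to mhc1uba are uncertain too. Near-identical heavy chain copies may also share or lose reads.

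The proteasome activator of PSME1 and PSME2 is a ring that docks on the proteasome and speeds the release of peptides, and both genes are interferon-induced in mammals. PSME1 (ENSDARG00000002165, chromosome 24, 12801384 to 12810063, plus strand) had 89.6, 149 and 234 CPM in lesion libraries, against 24.1, 76.4 and 98.5 CPM in sham libraries. The lowest lesion library fell within the sham range, and the other 9 lay above it. The means were 150 ± 39.8 CPM in lesion and 73.3 ± 23.5 CPM in sham libraries (log2 fold change 1.03 ± 0.22, edgeR adjusted p = 0.00347). PSME2 (ENSDARG00000033144, chromosome 12, 13280829 to 13293677, plus strand) had 38.9, 76.5 and 137 CPM in lesion libraries, against 6.88, 30.3 and 68.2 CPM in sham libraries. Of the lesion libraries 8 lay above all sham libraries (log2 fold change 1.33 ± 0.36, edgeR adjusted p = 0.0197). Lesion replicates 2, 9 and 10 were left out as a set from earlier work on these data, whose likeness was not otherwise examined here. These replicates had the most genes with a count of all libraries (15970, 16518 and 15693 in the same order). Without them PSME2 had 1.2 and no longer passed the threshold. With the title letter A alone neither subunit passed it (0.82 for PSME1, 1.31 for PSME2), and with B alone PSME2 did not (1.38). The end of PSME2 overlaps LSM5 on the other strand, and strand was ignored in the counting. LSM5 had 0.19 on the log2 scale (edgeR adjusted p = 0.962). The part of shared reads in the PSME2 counts was not tested.

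The inducible catalytic subunits, which replace PSMB5, PSMB6 and PSMB7 in the immunoproteasome, did not pass the test. PSMB10, the inducible partner of PSMB7, was the only one with counts in all 20 libraries: 54.3, 85.1 and 142 CPM in lesion libraries and 46.6, 74.1 and 136 CPM in sham libraries. The groups overlapped almost fully (log2 fold change 0.09 ± 0.24, edgeR adjusted p = 0.968). PSMB8, the partner of PSMB5, had a count in 8 lesion and 5 sham libraries, with medians of 11.6 CPM in lesion and 0.057 CPM in sham and highest values of 34.6 CPM in lesion and 35.4 CPM in sham (log2 fold change 1.04 ± 1.36, edgeR adjusted p = 0.893). PSMB9, the partner of PSMB6, had a count in 9 lesion and 4 sham libraries, with a median of 6.36 CPM in lesion and 0 in sham and highest values of 13.5 CPM in lesion and 13.2 CPM in sham (log2 fold change 1.13 ± 1.25, edgeR adjusted p = 0.846). Sham replicate 4 alone held 55.4% of the sham counts of PSMB8.

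All 3 constitutive subunits rose. The log2 fold change of PSMB5 was 0.69 ± 0.14 (edgeR adjusted p = 0.0022), that of PSMB6 0.76 ± 0.16 (0.00239) and that of PSMB7 0.79 ± 0.13 (0.000119). All 3 calls were lost in the title letter B alone (edgeR adjusted p = 0.28, 0.472 and 0.469 in the same order) and with the count of detected genes as a covariate (0.505, 0.912 and 0.777), and that of PSMB5 also in the letter A alone (0.0603). PSMB7 had 209, 330 and 362 CPM in lesion libraries against 139.5, 174 and 242 CPM in sham libraries. Per exon length, PSMB10 made up a median of 13.3% of the sum of PSMB10 and PSMB7 in lesion libraries (8.83 to 22.3%) and 18.0% in sham libraries (14.2 to 28.2%). Its log2 ratio to PSMB7 was lower after lesion by 0.66 ± 0.21 (-0.66, permutation p = 0.00616, adjusted p = 0.0114, 9 of 10 lesion libraries below the sham median). With the title letter B alone the difference was -0.63 (exact permutation p = 0.143). Relative to PSMB7, PSME1 differed by 0.30 ± 0.27 (adjusted permutation p = 0.383), with 7 of 10 lesion libraries above the sham median. PSME2 differed by 0.73 ± 0.33 (permutation p = 0.0355, adjusted p = 0.0512), with 10 of 10 lesion libraries above the sham median. Its unadjusted permutation p reached 0.0694 with 1 library left out. After adjustment neither activator subunit was shown to rise beyond that constitutive subunit, though PSME2 was close to the threshold.

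**Figure D3:**
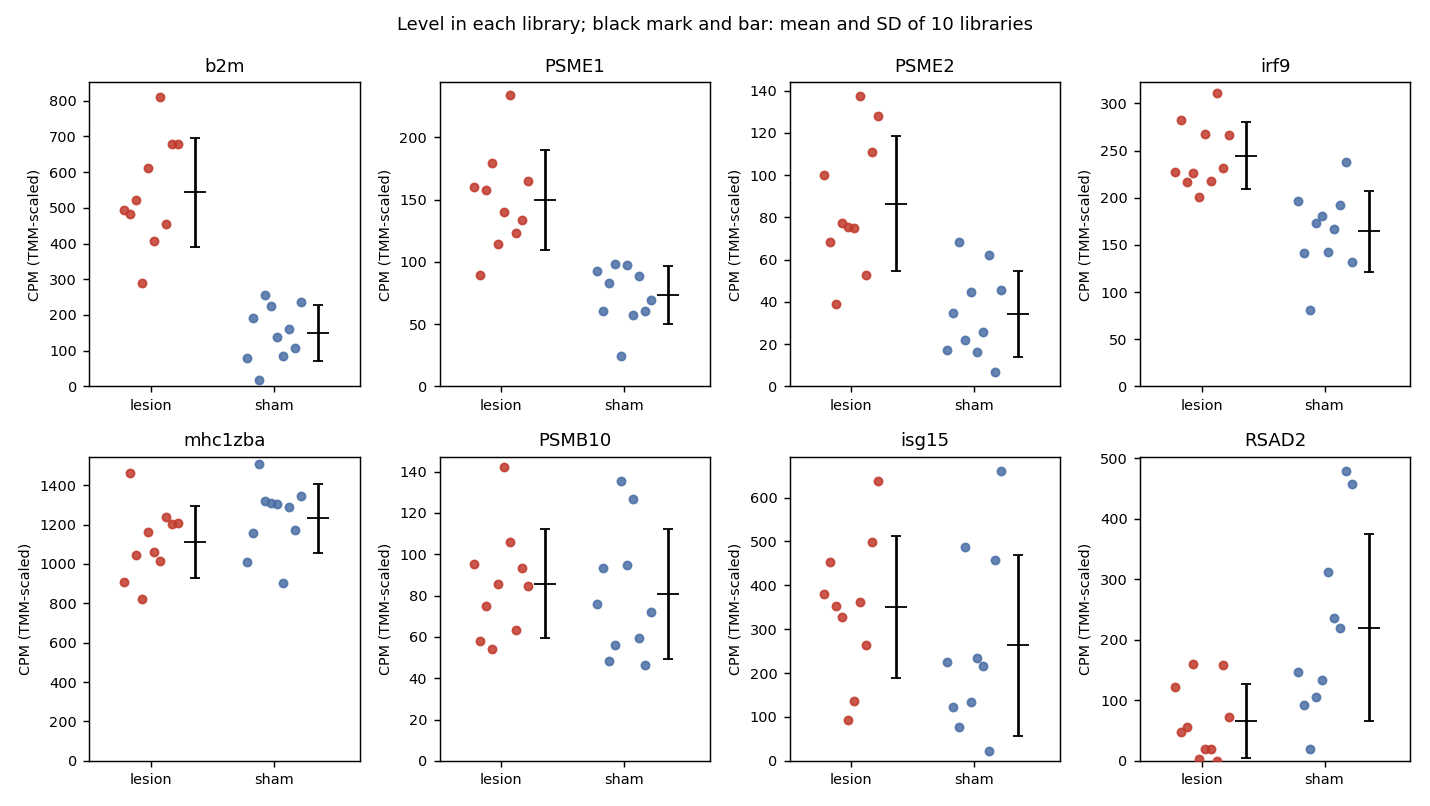
Level in each library (y axis, CPM from 0; lesion in red at left, sham in blue at right; black marks and bars are mean and SD of 10 libraries) for 8 genes. The lesion libraries of b2m start at 289.5 CPM, above the highest sham library at 256 CPM, while those of mhc1zba, PSMB10 and isg15 overlap the sham libraries and those of RSAD2 all lie below the sham median of 183 CPM.

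Peptide transport and loading genes were low and uneven. Tapasin bridges the transporter and the class I molecule, and its 2 genes, tapbp.1 and tapbp.2, overlap on the same strand. The first had 9.03 to 31.8 CPM with a median of 19.3 in lesion libraries, against 17.8 to 36.5 CPM with a median of 25.8 in sham libraries (log2 fold change -0.38 ± 0.41, edgeR adjusted p = 0.836). The second had medians of 29.2 CPM in lesion and 29.2 CPM in sham libraries (log2 fold change -0.18 ± 0.41, edgeR adjusted p = 0.96). For tapbpl, a tapasin-related peptide editor, the medians were 21.0 CPM in lesion and 5.53 CPM in sham libraries, but sham replicate 4 had the highest level of all at 66.8 CPM (edgeR adjusted p = 0.873, log2 fold change 0.89 ± 1.08). The transporter gene tap2t had medians of 12.2 CPM in lesion and 15.2 CPM in sham libraries, with highest values of 31.8 CPM in lesion and 50.3 CPM in sham (log2 fold change -0.34 ± 1.02, edgeR adjusted p = 0.97). TAP1 had a count in 7 lesion and 3 sham libraries (720 and 277 counts in all) and tap2a in 4 lesion and 1 sham library (210 and 228 counts), and neither was tested. In mammals nlrc5 switches on class I genes, and it had a count in 5 lesion libraries, up to 26.7 CPM, and in 1 sham library at 19.6 CPM.

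Of the factors that carry the interferon signal, irf9 rose. Irf9, the DNA-binding part of the complex that holds STAT2, is encoded by irf9 (ENSDARG00000016457, chromosome 12, 13244494 to 13268580, plus strand), which had 200.3, 229 and 311 CPM in lesion libraries against 81.3, 170 and 237.5 CPM in sham libraries. All 10 lesion libraries lay above the sham median and 4 above the highest sham library. The means were 245 ± 35.2 CPM in lesion and 164 ± 42.8 CPM in sham libraries (log2 fold change 0.57 ± 0.16, 1.49-fold, edgeR adjusted p = 0.0225). This call was lost in the title letters A (0.62) and B (0.52) alone and without lesion replicates 2, 9 and 10 (0.54), with the sign kept in each. The genes irf9 and PSME2 lie 12248 bases apart on the same strand with 1 gene between them, emc9, at 0.42 on the log2 scale (edgeR adjusted p = 0.849). A window of 50 kb on each side was drawn around this called pair, so the calls of the pair say nothing about the window. None of the other tested genes in it was called.

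Its partner gene stat2 did not pass the test. The medians were 12.5 CPM in lesion and 0.14 CPM in sham libraries, and sham replicate 4 held 79.5% of the sham counts (log2 fold change 0.62 ± 1.41, edgeR adjusted p = 0.959).

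Irf1, an activator of class I genes, has paralogs irf1a and irf1b. For irf1b the levels were 99.1, 157 and 317 CPM in lesion libraries and 45.5, 92.9 and 233 CPM in sham libraries, with all 10 lesion libraries above the sham median. Its log2 fold change of 0.83 ± 0.30 had an unadjusted p of 0.0121 and did not pass the threshold (edgeR adjusted p = 0.119). It passed with limma-voom, which called 13.2% of all genes higher and 3.7% lower, and when sham replicate 2 was left out (log2 fold change 1.02). IRF7, which drives interferon genes themselves, had 0.858, 47.5 and 108 CPM in lesion libraries against 0, 0.689 and 54.1 CPM in sham libraries, where only 5 had a count (log2 fold change 1.73 ± 1.19, edgeR adjusted p = 0.611). The sensor-activated factor gene irf3 was not tested: it had a count in 7 lesion libraries, up to 11.7 CPM, and in 1 sham library at 3.69 CPM. With no filter on low counts, where 11.6% of genes were called higher and 3.16% lower, its edgeR adjusted p was 0.171. The paralog irf1a had 23 counts in 9 lesion libraries and 13 counts in 5 sham libraries.

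Of the 5 tested effectors and sensors, 2 had positive and 3 negative log2 fold changes. The gene isg15 encodes a ubiquitin-like protein that is joined to other proteins after interferon, and it had 93.1, 357 and 637.5 CPM in lesion libraries against 21.7, 220 and 661 CPM in sham libraries. Both the lowest and the highest library were sham (log2 fold change 0.41 ± 0.43, edgeR adjusted p = 0.824). RSAD2, the antiviral enzyme viperin, had 0.107, 51.3 and 160.5 CPM in lesion libraries against 19.6, 183 and 479 CPM in sham libraries. All 10 lesion libraries lay below the sham median and 3 below the lowest sham library. Its log2 fold change of -1.74 ± 0.68 had an unadjusted p of 0.018 and did not pass the threshold (edgeR adjusted p = 0.159, and 0.0704 to 0.622 over the other settings, all with a negative sign). The ratio of RSAD2 to isg15 within a library had a median of 0.0887 in lesion libraries and 0.608 in sham libraries. On the log2 scale the difference was -3.48 ± 1.04 (permutation p = 0.00028, adjusted p = 0.000728), negative in the title letters A (-4.25, exact permutation p = 0.013) and B (-2.33, exact permutation p = 0.0286). The lowest lesion library of RSAD2 had 1 count, and with any 1 library left out the difference stayed between -3.77 and -2.64.

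Of the other effectors, trim25, a ubiquitin ligase that acts on the RNA sensor RIG-I in mammals, had medians of 130 CPM in lesion and 86.98 CPM in sham libraries (log2 fold change 0.36 ± 0.30, edgeR adjusted p = 0.728). DHX58, a RIG-I-like receptor that tunes the other sensors, had medians of 31.4 CPM in lesion and 2.94 CPM in sham libraries, but 2 sham libraries held the highest levels, up to 258 CPM (edgeR adjusted p = 0.946, log2 fold change -0.63 ± 1.24). The protease gene usp18, whose product removes Isg15 from proteins and damps the receptor, had medians of 9.77 CPM in lesion and 11.3 CPM in sham libraries (log2 fold change -0.38 ± 1.18, edgeR adjusted p = 0.972). IFIH1, the sensor of long double-stranded RNA, had a count in 7 lesion and 3 sham libraries and was not tested.

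Class I genes were set against isg15 as a further measure of an interferon response. The ratio of b2m to isg15 was higher by 1.35 ± 0.57 on the log2 scale in lesion libraries (permutation p = 0.0299, adjusted p = 0.0486). Its unadjusted permutation p passed 0.05 without lesion replicate 5 (0.0564, the highest), sham replicate 3 or sham replicate 9, and in neither title letter alone was it under 0.05 (exact permutation p = 0.229 in A and 0.0857 in B). Against isg15, PSME1 differed by 0.34 (adjusted permutation p = 0.61), PSME2 by 0.77 (0.383) and irf9 by -0.13 (0.82). Summed over the 19 class I genes, the level was 2414, 3188 and 4016 CPM in lesion libraries (lowest, median, highest) and 2570, 2976 and 3385 CPM in sham libraries. The 6 effectors and sensors summed to 221, 613.5 and 879 CPM in lesion libraries and 183, 548 and 1521 CPM in sham libraries, and the 6 factors to 344, 472 and 626 CPM in lesion and 180.5, 259.8 and 427 CPM in sham libraries. The sums overlapped between the groups in each role.

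The class II pathway, which shows peptides from outside the cell to helper T cells, appeared in few libraries. The invariant chain genes cd74a and cd74b, whose products guide class II molecules, reached their highest lesion level in lesion replicate 7, with 1725 and 2140 counts, and their highest sham level in sham replicate 1, with 620 and 605 counts. Lesion replicate 7 held 88.7% of the lesion counts of cd74a and 60.0% of those of cd74b. For cd74b the medians were 10.6 CPM in lesion and 9.58 CPM in sham libraries (log2 fold change 1.45 ± 1.33, edgeR adjusted p = 0.779; 0.16 without lesion replicate 7). The same library was the only one with counts of ctss2.2, a cathepsin (124), and had the most counts of ifi30a, a lysosomal reductase (158), and of ciita, the master activator of class II genes (102). The class II gene mhc2dab had 315 counts in lesion replicate 8, 7 in lesion replicate 7 and none elsewhere. Lesion replicate 7 had no count of LCP1, tyrobp, ptprc, csf1ra or CORO1A, genes of microglia and other leukocytes. However, LCP1 and tyrobp had no count in any library. Lesion libraries with a count numbered 2 for ptprc, 4 for csf1ra and 1 for CORO1A, so these absences do not set lesion replicate 7 apart. That library had 66 counts of cd68 and, with 354 counts, the highest IRF8 level of the lesion libraries, 48.6 CPM. The cells behind these counts were not tested.

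**Figure D4:**
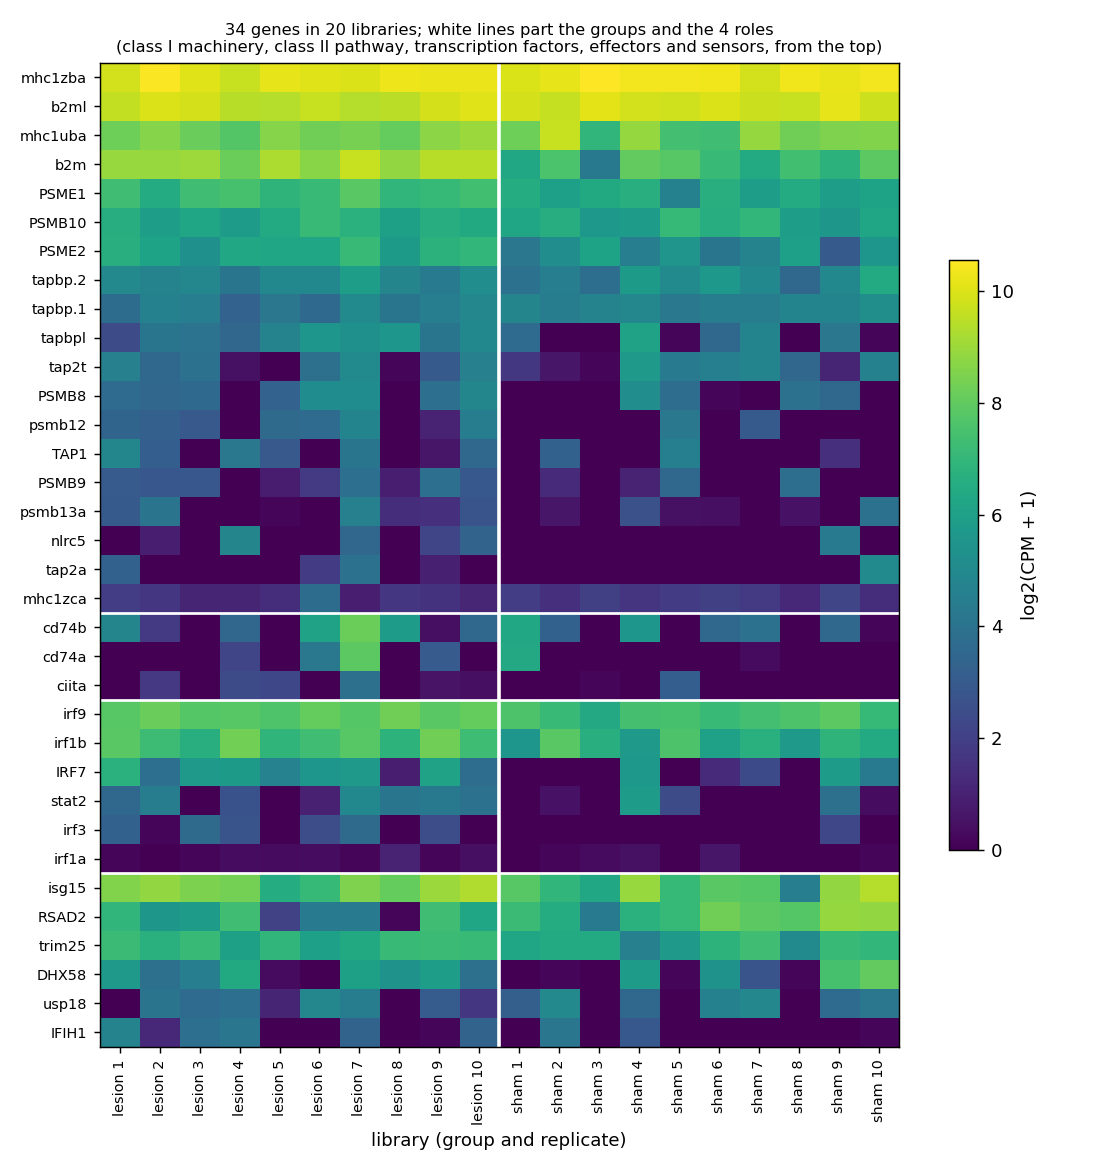
Level of all 34 genes in each library, as log2(CPM + 1) in colour, with lesion libraries at left and sham libraries at right and genes ordered by role and mean level. The 15 genes with a count in every library form bands across the plot, the others are patchy, and lesion replicate 7 stands out for cd74a and cd74b.

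Whether a gene was found at all differed between the groups. Of the 34 genes, 24 to 34 (median 29.5) had a count in a lesion library and 18 to 27 (median 24.5) in a sham library. All 10 untested genes (irf1a, irf3, psmb12, psmb13a, TAP1, tap2a, nlrc5, ciita, IFIH1 and cd74a) had a count in more lesion than sham libraries. The same held for 63.6% of all untested genes with a count, and for 76.5% of those with 250 to 3000 counts. The extra catalytic subunit gene psmb12 had 763 counts in 8 lesion libraries and 202 counts in 2 sham libraries, and psmb13a 433 counts in 7 lesion libraries and 167 counts in 6 sham libraries. This pattern moved with the larger number of genes found in lesion libraries, and cannot be told apart from it here.

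Of the 34 genes, 8 lie within 105.9 kb of chromosome 19 (7119769 to 7225660), where the only other annotated gene is mhc1uca. These are tapbp.1, tapbp.2, mhc1uba, PSMB8, psmb13a, psmb12, PSMB9 and tap2a. Their log2 fold changes among those tested ran from -0.38 for tapbp.1 to 1.13 for PSMB9, none past the threshold, and mhc1uca was the one gene of the stretch that rose. Annotated PSMB8 and psmb13a overlap each other and span psmb12, PSMB9 and tap2a, so reads of these genes may be divided between them. The same may hold for mhc1uca, which tapbp.1 and tapbp.2 span on the other strand. The 4 genes that rose lie elsewhere, on chromosomes 4, 12 and 24.

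Other genes of the pathway came from 7 further lists. Of 6 interferon genes, 5 had no count in any library, and ifnphi1 had 170 counts in 6 lesion libraries and 182 counts in 2 sham libraries. Among 7 tested receptors and kinases JAK1, a kinase shared by the interferon receptors, rose, with 91.5, 133 and 294 CPM in lesion libraries against 29.4, 62.3 and 109 CPM in sham libraries (log2 fold change 1.12 ± 0.29, edgeR adjusted p = 0.013). The receptor chain gene ifngr2 had 182 ± 61.7 CPM in lesion and 189 ± 43.5 CPM in sham libraries (edgeR adjusted p = 0.975). Among 12 tested regulators SOCS1, which shuts off Janus kinases, rose, and its lesion libraries (79.5, 109 and 181 CPM) lay wholly above its sham libraries (13.4, 57.1 and 78.8 CPM; edgeR adjusted p = 0.00443, log2 fold change 1.14 ± 0.26). SOCS3 (ENSDARG00000026611) had 183 ± 35.9 CPM in lesion and 90.5 ± 76.3 CPM in sham libraries (log2 fold change 1.02, edgeR adjusted p = 0.396), and it was called higher by DESeq2 and by limma-voom. For the phosphatase gene PTPN11 the log2 fold change was -0.29 (edgeR adjusted p = 0.819). The calls of JAK1 and SOCS1 were lost in the title letter A alone (edgeR adjusted p = 0.0828 for JAK1 and 0.109 for SOCS1), in B alone (0.539 and 0.191) and with the count of detected genes as a covariate (0.828 and 0.207). Limma-voom also called jak2a higher.

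None of 17 further interferon-induced genes and none of 5 nucleic acid sensing genes passed the threshold in edgeR. Unadjusted p-values under 0.05 were found for 4 of the 17, 3 in the higher and 1 in the lower direction, and for none of the 5. By DESeq2 1 of the 17 was called higher (gbp3) and 1 lower (parp12b). Of all 17530 genes tested by DESeq2, 1515 were called higher and 678 lower. By limma-voom 6 of the 17 were called higher: ifit16, gbp1, gbp3, ifi44a1, xaf1 and IRF8. Limma-voom called 13.2% of all genes higher, and its median gene of the whole table was at 0.70. Neither tool called any of the 5. For ifit16, of a family that binds viral RNA, the medians were 53.7 CPM in lesion and 0 in sham libraries, where 4 had a count. The most abundant were ifi27.1, with 183 ± 87.2 CPM in lesion and 112 ± 74.2 CPM in sham libraries (log2 fold change 0.71, edgeR adjusted p = 0.377), and STAT3 (0.79, edgeR adjusted p = 0.595). Of the sensing genes, the kinase gene TBK1 had -0.15 (edgeR adjusted p = 0.978) and TRAF6, an adaptor, 0.85 (edgeR adjusted p = 0.836). Of 10 tested genes of constitutive class I loading and peptide supply, PDIA3 rose, a disulfide isomerase of the loading complex, with 482 ± 117 CPM in lesion and 284 ± 92.4 CPM in sham libraries (log2 fold change 0.76 ± 0.18, edgeR adjusted p = 0.00778; 0.59 and not called without lesion replicates 2, 9 and 10). It was also not called in either title letter alone (edgeR adjusted p = 0.134 in A and 0.114 in B) or with the covariate (0.974), and limma-voom called ERAP1, PSME4 and calr3a higher beside it. The chaperone gene CANX had 0.43 on the log2 scale (edgeR adjusted p = 0.862). Of 5 tested other class I and class II genes mhc1zda fell, as above, and mhc1zea had -0.84 (edgeR adjusted p = 0.515) but was called lower by DESeq2, while limma-voom called mhc1laa higher.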

How the data were processed

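RNA sequencing reads were counted per gene in 10 lesion and 10 sham libraries, 1 column of the deposited table each, matched by sample title. The authors deposited raw read counts, not normalized, together with each gene's exon length as another value. The submitters' processing notes name bcl2fastq 2.19.1, GSNAP, featureCounts 1.6.2 and the build GRCz10. The Ensembl release was 87, the minimum mapping quality 1 and the strand setting 0, per the file headers. Reads of genes that overlap on opposite strands are thus not separable. The table has 32358 rows, of which 92 spike-ins with 2 counts were left out. Symbols for 26433 of the 32266 genes come from a table of identifiers and names, in its spelling. Protein and promoter sequences were not used here. Of the 40 listed symbols, 2 are not reported here.

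Lesion was compared with sham in edgeR 4.0.16 under R 4.3.3 (filterByExpr, TMM, quasi-likelihood F test, group as the only term), two-sided. Adjustment was by Benjamini-Hochberg over all 10467 tested genes, with 0.05 as the threshold, and each standard error is the log2 fold change's size over the square root of F. The test was tried on simulated counts. Ratios within libraries used CPM per kb of exon, for genes with a count in all 20 libraries, and permutation tests with 100000 resamples in scipy 1.17.1, adjusted over 13 ratios. Alternatives were DESeq2 1.42.0 and its size factors, limma-voom (limma 3.58.1), no filter, the letter A or B of the sample titles as a term or alone, detected genes as a covariate, and left-out libraries. Replicate numbers follow accession order and pair nothing. Lesion titles carry numbers 7 to 12 and sham titles 1 to 6, so any effect of position cannot be told apart from the group. The genes, lists and tests were chosen with earlier results of these data known. Genes named from the lists are those past the threshold and the 2 tested genes of each list with the highest mean count; mhc1uca and other heavy chains, the class II genes beside cd74, the further interferon-induced genes given for DESeq2 and limma-voom, and emc9 and LSM5 were chosen after their values were seen.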

Additional observations from a re-analysis of the deposited data

Results flagged for a closer look

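A library stood far from the other 9 of its group in 10 of 64 combinations of gene and group. The rule used gives about 1 in 20 by chance only where values are normally distributed. It was applied to CPM, which are uneven for genes with few counts, so no excess can be read from this number. Sham replicate 4 was far above the other sham libraries for 4 genes: stat2 at 56.6 CPM (next highest 13.9), PSMB8 at 35.4 CPM (next 14.9), tap2t at 50.3 CPM (next 26.0) and tapbpl at 66.8 CPM (next 26.1). Sham replicate 2 was high for mhc1uba at 817 CPM (next 477), and sham replicate 9 low for SOCS1 at 13.4 CPM (next lowest 44.2). Lesion replicate 7 was high for tapbp.2 at 59.6 CPM (next 34.9) and for cd74b at 294 CPM (next 66.8). Lesion replicate 6 was high for mhc1zca at 12.5 CPM (next 2.78) and for JAK1 at 294 CPM (next 174). Genes of 1 library are not independent of each other.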

How the results depend on the processing

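No paired analysis was possible because the replicate numbers follow accession order and the labels tie no lesion library to a sham library. None of the tested genes among the 34 was called lower under any of the 9 other settings or in the 20 fits without 1 library. The 4 higher calls became 7 with limma-voom (IRF7, irf1b and tapbpl added), 1 with the title letter A alone (b2m), 2 with B alone (PSME1 and the otherwise untested irf3), 0 with detected genes as a covariate and 2 without lesion replicates 2, 9 and 10 (b2m, PSME1), and lay between 4 and 5 with 1 library left out. Over all genes the 454 higher calls became 1515 with the DESeq2 test, 1380 with limma-voom, 2780 without a filter, 207 with the letter B alone and 140 with the covariate (395 to 511 with 1 library left out). The 339 lower calls became 678 with the DESeq2 test, 758 without a filter, 201 with the letter A, 40 with the letter B and 36 with the covariate (295 to 382). The share of calls that were higher was 57.3%, against 78.1% with limma-voom, 78.6% without a filter and 69.1% with the DESeq2 test. The median log2 fold change of all genes was 0.03, but 0.70 with limma-voom, 0.21 without a filter, 0.15 with the DESeq2 test and -0.13 with the covariate, and changes are relative to these shifts.

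Signs turned for uncalled genes. With the covariate the log2 fold change was -2.80 for stat2, -0.81 for isg15, -0.66 for IRF7, -1.52 for PSMB8, -0.72 for PSMB9 and -0.019 for trim25. With the letter B alone it was -0.084 for isg15, 0.17 for tap2t and -0.38 for trim25, while stat2 and PSMB8 were not tested there. With the letter A alone it was -0.0001 for PSMB8, -0.37 for mhc1zca and 0.55 for mhc1uba. Limma-voom gave 2.26 for DHX58, -0.26 for mhc1zca and 0.092 for mhc1uba, and the DESeq2 test -0.56 for mhc1zca. With 1 library left out the values spanned -0.023 to 0.17 for PSMB10, -0.61 to 0.042 for tap2t, -0.35 to 0.10 for tapbp.2, -0.88 to 0.15 for DHX58, -0.54 to 0.29 for mhc1zca and -0.17 to 0.15 for mhc1uba. The cause was not tested. Called genes kept their sign in every setting and their call in all 20 fits without 1 library. At this depth a gene near 0.37 CPM rests on about 3 counts.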

Other observations

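Lesion replicate 7 held the highest lesion level for 14 of the 34 genes, more than any other lesion library, and it had a count of all 34, as did lesion replicate 9. Its list included b2m, PSME1, PSME2, PSMB8, psmb12, psmb13a, tap2a, tap2t, tapbp.1, tapbp.2, ciita, cd74a, cd74b and stat2. It had 14263 genes with a count, within the lesion range. Its b2m level was 811.5 CPM. Its sum of effectors and sensors, 559 CPM, lay below the lesion median. Without this library b2m averaged 513 CPM over the other 9 lesion libraries, PSME1 140 CPM and PSME2 80.7 CPM. Among the sham libraries, replicate 9 held the highest level for 7 of the 34 genes and replicates 4 and 10 for 6 each, and replicates 9 and 10 had the highest sums of effectors and sensors, 1273 and 1521 CPM.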
